A study of Arabidopsis thaliana with 12 samples.

Results

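The genes described here are those of endoplasmic reticulum (ER) bodies and of myrosinase-binding proteins in *Arabidopsis thaliana*: *PYK10* (AT3G09260), *NAI2* (AT3G15950), *TSA1* (AT1G52410), *MBP1* (AT1G52040) and *MBP2* (AT1G52030). They were chosen by locus name, with their polysomal and non-polysomal signals in the *eif3k* and wild-type (WT) samples already in view. All of their values are therefore given as a description, without a test. Of the 5 genes, 4 had a probe set under their own locus, out of 22746 probe sets on the array that do not belong to controls. *MBP2* had none. The probe set of *MBP1* is of a type that may hybridize to several transcripts, so signal from *MBP2*, the adjacent gene, cannot be told apart from that of *MBP1*.

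ER bodies are spindle-shaped compartments that bud from the ER in plants of the Brassicales and are best known from the epidermis of cotyledons and hypocotyls and from roots. They store PYK10, a beta-glucosidase that is held in the ER and that can cleave indole glucosinolates, once tissue is broken, in the manner of a myrosinase. NAI2 is the protein needed to form these bodies and TSA1 is its close relative, while the MBP proteins are jacalin-type lectins named after their binding to myrosinases, the enzymes that cleave glucosinolates.

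The study measured how far each mRNA was loaded with ribosomes. The *eif3k* seedlings had a T-DNA inserted into an intron of *eIF3k*, whose product is a peripheral subunit of translation initiation factor eIF3, and were described as having a transcript shortened at its 3′ end, none of full length and no obvious phenotype. This is a single insertion line. The WT seedlings were of the same ecotype, Columbia, and neither genotype received a treatment. Aerial parts were harvested at 11 days, and both genotypes were grown on medium with sucrose. The labels give a long day and the methods of the study continuous light. Lysates were spread over sucrose gradients, from which the lower fractions were pooled as polysomal (PL) and the upper ones, with free mRNA and single ribosomes, as non-polysomal (NP) samples. Each genotype and fraction had 3 replicates, each on its own array. Values are log2 signals per probe set, and 2.33 was the lowest value on any array. Levels of different probe sets cannot be compared with each other. The translation state (TL) is log2 PL minus log2 NP of the same replicate, and the level is the mean of these log2 values. PL and NP arrays were normalized together, so TL ranks mRNAs within a sample and does not give the share of an mRNA that sits on polysomes.

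WT replicate 3 stood apart from the other samples. Its TL values correlated across probe sets with those of the other 5 samples at r = 0.30 to 0.36, against 0.74 to 0.90 among these 5. On its PL array the 3′ probe set of GAPDH exceeded the 5′ probe set by a log2 value of 8.98 (5.56 to 7.97 on the others), and that of ubiquitin by 3.54 (1.70 to 2.92 elsewhere), while the difference for actin, 6.78, lay within the range of the others. Replicate 3 of both genotypes was hybridized on another day than replicates 1 and 2, which are called array batch 1 here. Among the 7182 probe sets with a mean log2 signal of at least 5 the median PL difference between genotypes was 0.24, and 0.00 without WT replicate 3. Each genotype difference is therefore also given without WT replicate 3, or within batch 1. The signal of *eIF3k* itself was lower in NP, with 7.30, 7.93 and 8.05 in *eif3k* and 9.26, 9.45 and 9.01 in WT. Its PL signals were 7.17, 7.06 and 7.63 in *eif3k* and 8.61, 8.89 and 7.28 in WT and overlapped.

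*PYK10*, the enzyme stored in ER bodies, had the same order in PL in each pair of replicates. Its log2 PL signals were 9.79, 10.37 and 9.65 in *eif3k* replicates 1, 2 and 3, against 8.95, 9.23 and 7.34 in WT. Every *eif3k* value lay above every WT value, and the lowest of all was that of WT replicate 3. The mean difference was 1.43 (SE 0.63), or 2.69-fold, and it was 0.85 without WT replicate 3 and 0.99 within array batch 1. In bulk tissue a change in the number of cells that hold an mRNA and a change in its amount per cell cannot be told apart.

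In NP, the *PYK10* signals were 8.05, 8.02 and 7.94 in *eif3k* and 7.34, 7.41 and 8.69 in WT. The groups overlapped because WT replicate 3, the lowest sample in PL, was the highest in NP. The NP difference was 0.19 (SE 0.44) over all samples and 0.63 without WT replicate 3. The level of *PYK10*, to which both fractions contribute equally, was 8.97 ± 0.20 in *eif3k* and 8.16 ± 0.15 in WT (SD, n = 3 each) and did not overlap. The difference of 0.81 (SE 0.15), 1.75-fold, was 0.78, 0.88 and 0.78 in the pairs of replicates 1, 2 and 3 and stayed between 0.70 and 0.90 when any sample or replicate number was left out. The opposite deviations of WT replicate 3 in the fractions largely cancel in the level, so this small SE understates the spread within each fraction.

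*NAI2*, the gene required for ER body formation, had PL signals of 4.95, 5.00 and 6.01 in *eif3k*, against 4.51, 4.81 and 4.35 in WT. The groups were apart, but by little in replicates 1 and 2. The PL difference of 0.76 (SE 0.37) was 0.66 without WT replicate 3 and 0.32 within array batch 1. In NP, the signals were 3.76, 3.79 and 3.97 in *eif3k* and 3.45, 3.66 and 5.13 in WT. As with *PYK10*, the NP array of WT replicate 3 held the highest NP value, and its PL array the lowest PL value, of this gene. The NP difference was -0.24 (SE 0.53), and 0.29 without WT replicate 3. The level of *NAI2* overlapped between genotypes, at 4.58 ± 0.36 in *eif3k* and 4.32 ± 0.39 in WT (SD, n = 3 each).

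*TSA1*, the relative of *NAI2*, was the dimmest of the 4 probe sets, within 1 log2 unit of the lowest array value in all WT samples. Its PL signals were 3.56, 3.95 and 4.90 in *eif3k*, against 3.17, 3.01 and 2.97 in WT. All *eif3k* values were above all WT values, by a mean of 1.09 (SE 0.40), 2.12-fold. The difference was 1.05 without WT replicate 3 and 0.67 within batch 1. In NP the signals were 2.97, 2.98 and 3.36 in *eif3k* and 2.69, 2.69 and 2.97 in WT, so that the groups met at 2.97. The level was 0.70 (SE 0.26) higher in *eif3k*, without overlap.

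*MBP1*, the lectin gene, was the member for which both fractions were apart. Its PL signals were 5.11, 4.91 and 6.43 in *eif3k*, against 3.77, 3.77 and 4.08 in WT. In NP they were 4.93, 4.60 and 6.25 in *eif3k*, against 3.77, 3.56 and 3.58 in WT. The *eif3k* values were higher throughout, and *eif3k* replicate 3 was the highest sample in both fractions. The PL difference was 1.61 (SE 0.49), 3.05-fold, and the NP difference 1.62 (SE 0.51), 3.08-fold. Within batch 1 these were 1.24 and 1.10, and without WT replicate 3 they were 1.71 and 1.60. The level was 5.37 ± 0.85 in *eif3k* and 3.76 ± 0.08 in WT (SD, n = 3 each).

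**Figure D1:**
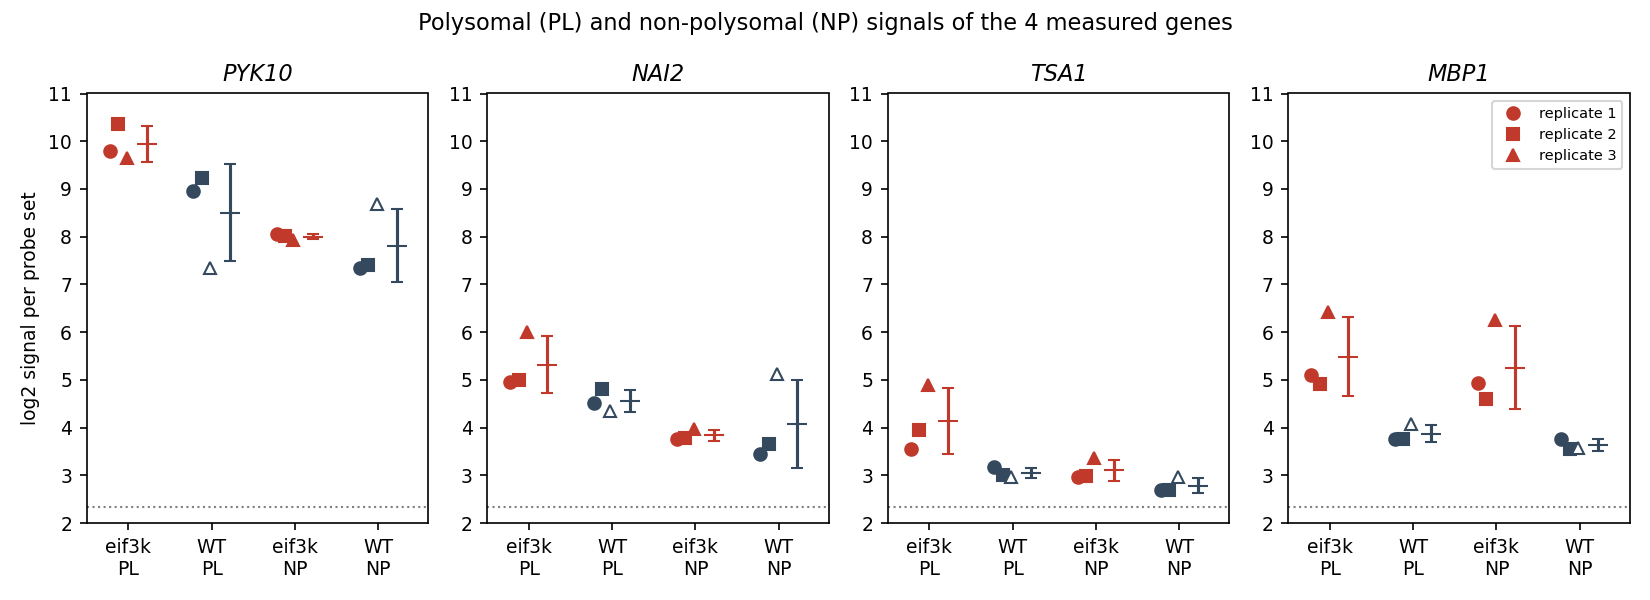
Log2 signals (y axis) of *PYK10*, *NAI2*, *TSA1* and *MBP1* in PL and NP of *eif3k* (red) and WT (dark blue), 1 point per array with the mean ± SD (n = 3) beside it; the open triangle is WT replicate 3 and the dotted line the lowest array value, 2.33. In PL all *eif3k* points lie above all WT points for the 4 genes, and in NP this holds for *MBP1*.

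All 4 probe sets thus had higher PL signals in *eif3k* with no overlap between genotypes. Among all 22746 probe sets 4.56% did, and 7.79% among the 12333 with a mean log2 signal of at least 3, a limit chosen after the values were seen. The same was the case in NP for 1 of the 4 (3.83% of all), in TL for 2 (4.16%) and in level for 3 (5.12%). In PL and NP together it held for *MBP1* and for 0.567% of all probe sets. Without WT replicate 3 the 4 PL differences remained between 0.66 and 1.71, beside a background of 6.30% (10.5% with a mean of at least 3). Within batch 1 they lay between 0.32 and 1.24, beside 11.3% (18.6% with a mean of at least 3). Since the genes were picked with these values known, nothing is read from their share. With limma, 0 of the 22746 probe sets passed the test between genotypes in PL (a Benjamini-Hochberg adjusted p below 0.05 together with a log2 change of 1 or more), while 436 had an unadjusted p under 0.05. The corresponding numbers were 0 and 721 in NP, 0 and 612 in TL, and 1 (0.0044%) and 664 in level.

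The groups fell into different orders for the 4 genes. For *PYK10* the highest mean was that of *eif3k* PL (9.94 ± 0.38), followed by WT PL (8.51 ± 1.02), *eif3k* NP (8.00 ± 0.06) and WT NP (7.81 ± 0.76; SD, n = 3 each), and the ranges of the last 3 groups overlapped with their neighbours. *NAI2* also began with *eif3k* PL (5.32 ± 0.60) and WT PL (4.56 ± 0.23), and its NP groups followed with overlap. *TSA1* ran from *eif3k* PL (4.14 ± 0.69) over *eif3k* NP (3.10 ± 0.22) to WT PL (3.05 ± 0.11) and WT NP (2.78 ± 0.16), with a gap between the first and the second alone. For *MBP1* both *eif3k* groups, 5.48 ± 0.83 in PL and 5.26 ± 0.87 in NP, stood above both WT groups, 3.87 ± 0.18 in PL and 3.64 ± 0.12 in NP. *PYK10* and *NAI2* were thus ordered mainly by fraction and *MBP1* by genotype.

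Translation states also differed among the 4 genes. *PYK10* had a log2 TL of 1.74, 2.35 and 1.71 in *eif3k*, against 1.61, 1.82 and -1.35 in WT. In the *eif3k* samples and WT replicates 1 and 2 only 1.09% to 3.40% of the 12333 probe sets with a mean of at least 3 had a higher TL, while in WT replicate 3 83.6% did. The TL difference between genotypes, 1.24 (SE 1.04), was 0.22 without WT replicate 3 and 0.33 within batch 1, and the groups overlapped.

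*NAI2* had a TL of 1.19, 1.21 and 2.04 in *eif3k* and 1.06, 1.15 and -0.78 in WT. These ranges did not overlap, but the lowest *eif3k* and the highest WT value lay close together. The difference of 1.00 (SE 0.69) came to 0.38 without WT replicate 3 and to 0.10 within batch 1. *TSA1* had a TL of 0.59, 0.97 and 1.54 in *eif3k* and 0.48, 0.32 and 0.00 in WT, also apart, with a difference of 0.77 (SE 0.31), 0.63 without WT replicate 3 and 0.38 within batch 1. *MBP1* had a TL of 0.18, 0.31 and 0.18 in *eif3k* and 0.00, 0.21 and 0.50 in WT, a difference of -0.01 (SE 0.15). For *MBP1*, between 35.6% and 47.7% of the probe sets had a higher TL in each sample other than WT replicate 3, nearer the middle of the distribution than *PYK10*. The corresponding shares were 0.77% to 11.2% for *NAI2* and 2.98% to 34.6% for *TSA1*, whose WT TL values, 0.00 to 0.48, lay within the range of those of *MBP1*.

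WT replicate 3 had the lowest TL of the 6 samples for *PYK10*, *NAI2* and *TSA1*, as it did for 31.5% of all probe sets, and the highest for *MBP1*. The TL differences of *PYK10* and *NAI2* rest mostly on that sample. In the pairs of replicates 1, 2 and 3 they were 0.13, 0.53 and 3.06 for *PYK10* and 0.13, 0.06 and 2.82 for *NAI2*. The PL differences of both genes were likewise positive in each of the 3 pairs. In *eif3k*, all PL signals exceeded all NP signals for *PYK10*, *NAI2* and *TSA1* (14.1% of all probe sets), and in WT for 0 of the 4 genes (7.93%), which again includes WT replicate 3.

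**Figure D2:**
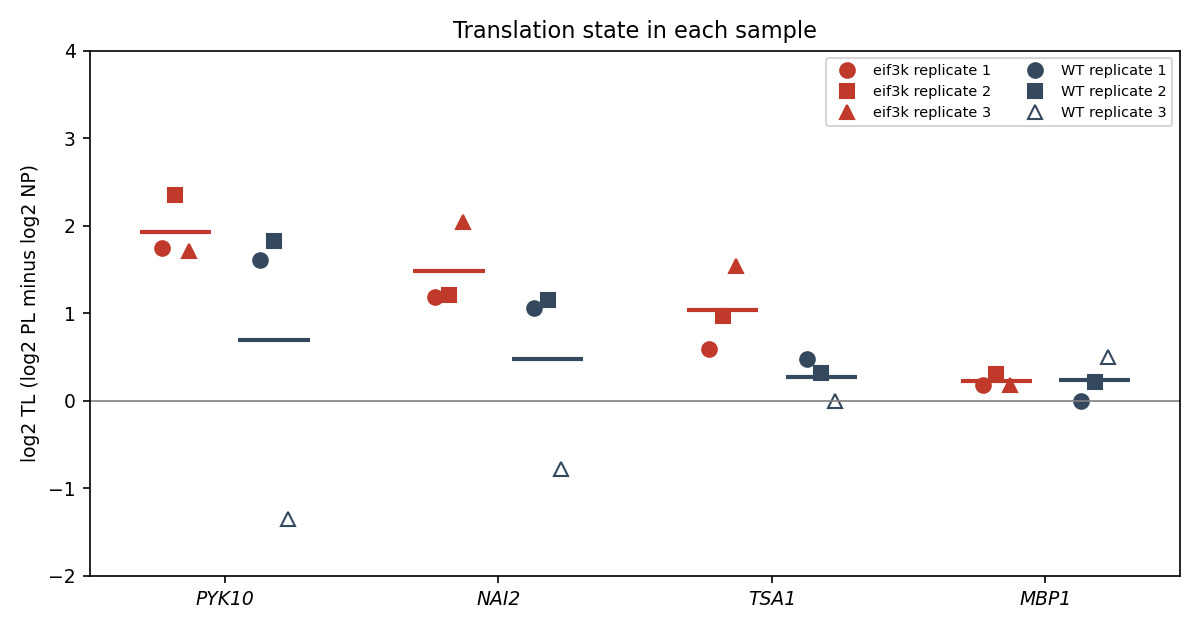
Log2 TL (y axis) of the 4 genes in each sample, with *eif3k* (red) left of WT (dark blue); horizontal lines are means of 3 replicates and open triangles are WT replicate 3. *PYK10* lies between 1.61 and 2.35 in 5 samples and at -1.35 in WT replicate 3, whereas *MBP1* lies between 0.00 and 0.50 in all 6.

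Over the 12 arrays the profiles of *PYK10* and *NAI2* were more like each other than like that of *MBP1*. Pearson's r was 0.80 between *PYK10* and *NAI2*, 0.80 between *NAI2* and *TSA1* and 0.71 between *PYK10* and *TSA1*. *MBP1* correlated with *PYK10* at 0.34, with *NAI2* at 0.35 and with *TSA1* at 0.76. These arrays share fractions, replicates and batches, so the coefficients describe the profiles and carry no test. In PL, *NAI2*, *TSA1* and *MBP1* had their highest value in *eif3k* replicate 3 and *PYK10* in *eif3k* replicate 2.

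Among 6402 other probe sets with an SD over the 12 arrays of at least 0.5, the 10 whose profiles were most like the mean of the 4 had r between 0.91 and 0.95. They were AT1G17860, annotated as a miraculin-like protein (r = 0.95), *AZI1*, a lipid-transfer-type protein of systemic defence (0.94), *BIP1*, an ER chaperone of the HSP70 family (0.94), AT3G28940 (0.94), *ERDJ3B*, a co-chaperone of the ER lumen (0.93), AT4G14060, annotated as similar to a major latex protein (0.93), *DR4* (0.93), AT1G16860 (0.92), AT3G45310, annotated as a cysteine proteinase (0.92), and *GPAT4*, an acyltransferase of cutin synthesis (0.91). Their PL differences were between 0.54 and 1.98 in log2, all higher in *eif3k*, a direction that the choice by likeness largely fixes, and their NP differences between -0.05 and 0.95. *DR4* had the largest PL difference of the 10, 1.98. The coefficients stayed between 0.92 and 0.97 without WT replicate 3.

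**Figure D3:**
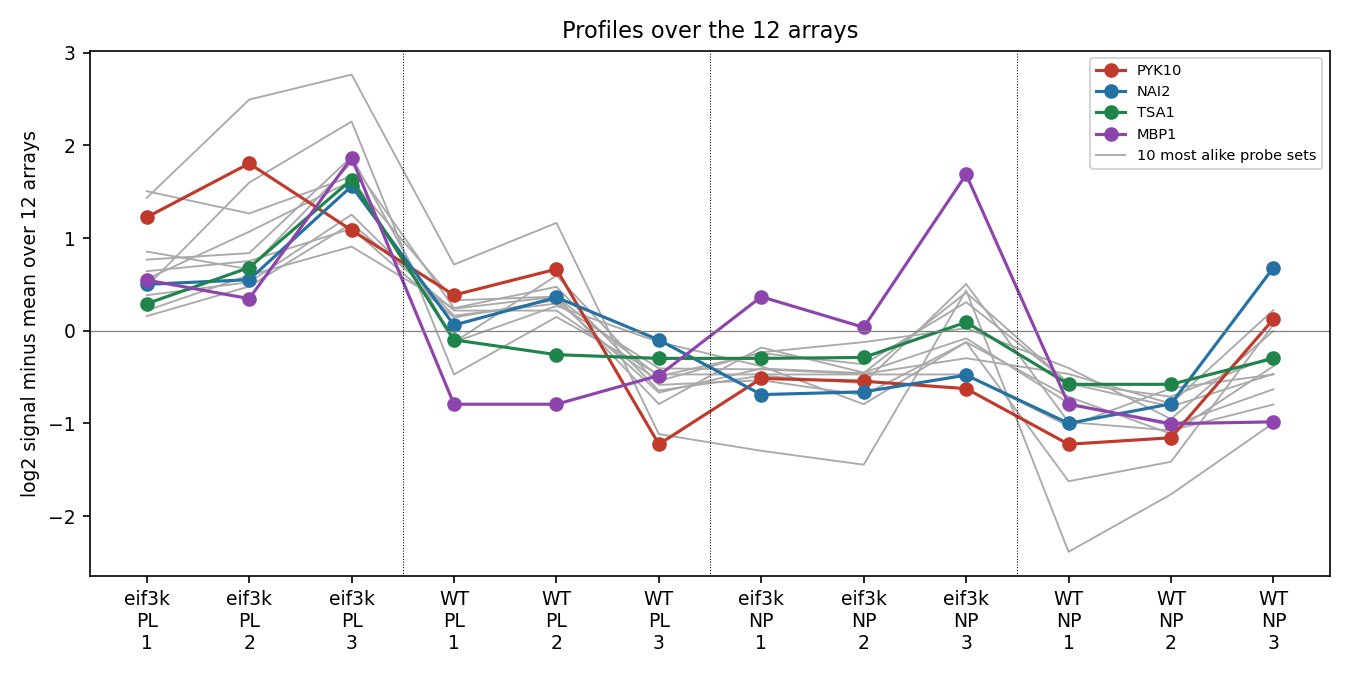
Log2 signal minus the mean over the 12 arrays (y axis) for the 4 genes (coloured lines) and the 10 most alike probe sets (grey lines), ordered by fraction, genotype and replicate (x axis). The grey lines and *PYK10*, *NAI2* and *TSA1* are highest in *eif3k* PL, while *MBP1* is above its mean in *eif3k* PL and NP and below it in every WT array.

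The wider set of ER body and PYK10 complex genes was listed with earlier results of these data known and had 16 of 19 genes on the array. In PL, 12 of the 16 had a positive difference and 7 were higher in *eif3k* with no overlap, 0 were lower, and the median difference was 0.68. Over all probe sets 4.56% were higher and 1.57% lower without overlap, with a median of 0.00. Among those with a mean of at least 3, 7.79% were higher, and with a mean of at least 5 the median was 0.24. Without WT replicate 3 the count was 7 and the median 0.50, beside 6.30% of all probe sets (10.5% with a mean of at least 3). Within batch 1 they were 8 and 0.44, beside 11.3% (18.6% with a mean of at least 3). No gene of the list was called by limma between genotypes in any measure. In PL 6 of the 16 had an unadjusted p under 0.05, where 436 of all 22746 probe sets did.

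The largest difference on that list belonged to *BGLU18*, a beta-glucosidase of the ER bodies that form in wounded leaves, whose gene lies next to *TSA1*. It had PL signals of 9.11, 9.59 and 10.32 in *eif3k*, against 8.13, 8.07 and 6.35 in WT, a difference of 2.16 (adjusted p = 0.82 in limma). In NP it had 7.83, 7.90 and 9.15 in *eif3k*, against 7.13, 6.74 and 6.96 in WT, a difference of 1.35 (adjusted p = 0.88). Neither fraction overlapped, and within batch 1 the differences were 1.25 and 0.93. Like *MBP1*, *BGLU18* was apart in both fractions.

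The lectin genes of the PYK10 complex followed in PL. *JAL22* differed by 1.50, *JAL33* by 1.23, *JAL31* by 1.09 and *JAL34* by 0.82, all without overlap, and *JAL35* by 1.29 with overlap. Within batch 1 these 5 differences were 0.91, 0.91, 0.76, 0.61 and 0.62. For *JAL31* the signals were 9.78, 10.09 and 10.26 in *eif3k* and 8.90, 9.45 and 8.51 in WT, and its probe set may hybridize to several transcripts. In NP these lectin genes overlapped except *JAL35*, which had 3.17, 3.63 and 4.81 in *eif3k* and 2.84, 3.15 and 2.95 in WT. *JAL32* stood at 2.33 on all arrays, and *JAL23* reached 4.44 in PL and 3.17 in NP of *eif3k* replicate 3 but at most 2.52 elsewhere.

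The GDSL lipase-like genes had smaller PL differences, 0.71 for *GLL23*, whose probe set may hybridize to several transcripts, and 0.65 for *MVP1*, a gene needed for normal ER shape. Without WT replicate 3 they were 0.38 and 0.50. Both were apart in PL and overlapped in NP, where *MVP1* differed by -0.28. *NAI1*, the bHLH regulator required for *PYK10* expression, had PL values of 3.81 to 3.84 in *eif3k*. It stood at 3.81 on the 3 WT PL arrays and on every NP array. Such a repeated value may be the lower limit of this probe set, so whether *NAI1* differed cannot be read from it. *MEB1* and *MEB2*, membrane proteins of the ER body, and *BGLU19*, *BGLU20* and *BGLU22*, relatives of *PYK10*, were dim and overlapped. *JAL31* was also the gene of this list with a TL called above 0 in *eif3k* (2.09, SE 0.26, adjusted p = 0.025 in limma, where 4.73% of all probe sets were called), and 0 of the 16 were called in WT (4.84%). When single samples or replicate numbers were left out, these counts ran from 0 to 3 in each genotype, and both were 3 without WT replicate 3. Without replicate 1, or without replicate 2, of both genotypes no probe set of the array was called in TL against 0. Without replicate 3 of both, 947 were called in *eif3k* and 876 in WT. Calls of this kind thus depend strongly on which replicates are included.

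**Figure D4:**
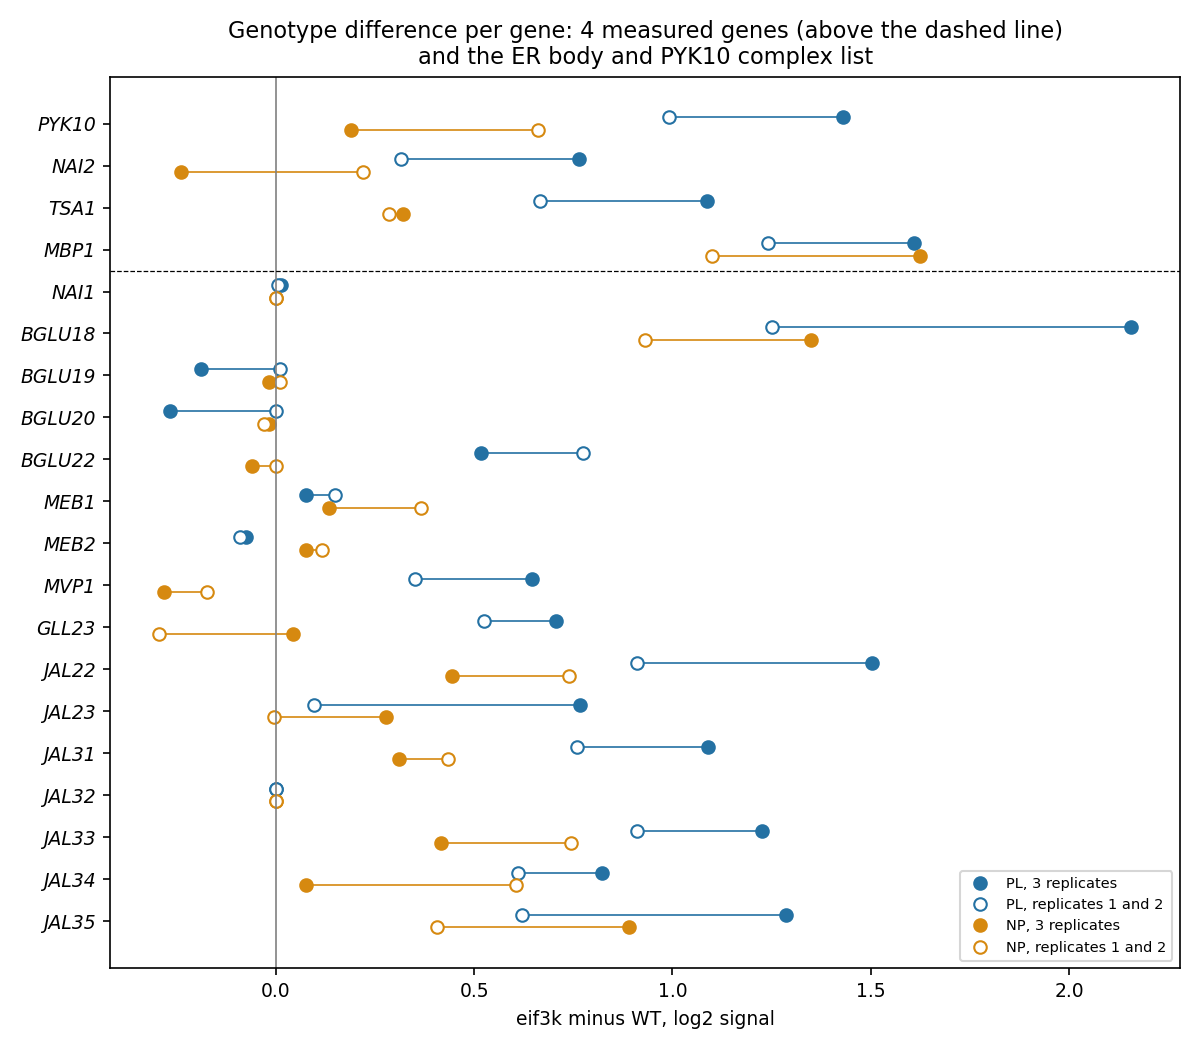
Difference between genotypes, *eif3k* minus WT in log2 signal (x axis), for the 4 genes and the 16 measured genes of the ER body and PYK10 complex list (y axis), in PL (blue) and NP (orange), over all 3 replicates (filled) and over replicates 1 and 2 (open). *BGLU18* has the largest PL difference, 2.16, and 1.25 within replicates 1 and 2, while *MBP1* and *BGLU18* are to the right of 0.9 in both fractions.

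Most measured genes beside the members on the chromosomes, taken from the order of genes in the RefSeq table, overlapped in PL. Those higher in *eif3k* without overlap were AT1G52000, *GSTU8* and *BGLU18*, the neighbour of *TSA1* (2.16), beside 4.56% of all probe sets. Some of the others, such as AT3G09280 and *TAC1* near *PYK10*, had a PL difference of 0.00 and could hardly be apart. AT1G52000, annotated as a putative myrosinase-binding protein and adjacent to *MBP2*, had PL signals of 6.00, 6.61 and 6.27 in *eif3k*, against 5.76, 5.89 and 5.22 in WT, which did not overlap (difference 0.67). In NP it overlapped, with a difference of 0.84. AT1G52050, AT1G52060 and AT1G52070, the next lectin genes along, lay at or near 2.33 on nearly all arrays, and AT1G52100 overlapped in both fractions. Of these 5 measured lectin genes 1 was thus apart in PL, beside 4.56% of all probe sets. Those at or near 2.33 could hardly be apart, so little can be read from this count. Next to *PYK10*, *GSTU8*, a glutathione transferase gene, was higher in PL by 0.73 without overlap, and the other measured neighbours of *PYK10* and *NAI2* overlapped.

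Myrosinases and the proteins that steer the breakdown of glucosinolates were measured for 9 of 14 listed genes. In PL 0 of the 9 were apart between genotypes, where 4.56% of all probe sets were higher and 1.57% lower. *TGG2*, a classical myrosinase, had PL signals of 12.33, 12.41 and 11.67 in *eif3k* and 12.11, 12.44 and 7.39 in WT. Its difference of 1.49 was -0.14 without WT replicate 3 and thus rested on that array, and its probe set may hybridize to several transcripts. *PEN2*, an atypical myrosinase of pathogen defence, differed by -0.13, *ESM1*, an epithiospecifier modifier, by 0.60 (-0.01 without WT replicate 3) and *NSP5*, a nitrile specifier, by 0.40 (0.06). *ESP*, the epithiospecifier protein, overlapped in PL but was apart in NP, with 5.61, 5.57 and 6.32 in *eif3k*, against 5.14, 4.74 and 4.30 in WT. The median PL difference of the list was 0.32, and 0.00 without WT replicate 3. *TGG4*, *TGG6* and *NSP2*, with PL differences of 0.00, -0.01 and 0.00, hardly varied and could hardly be apart. Higher signals in both fractions without overlap, as for *MBP1*, were seen for 0 of the measured myrosinases. Only 0.567% of all probe sets had them, so this 0 says little. *TGG1* had no probe set under its own locus.

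Genes listed for the synthesis of indole glucosinolates, which PYK10 can cleave, were all measured. Not every enzyme on the list is particular to these compounds. In PL 7 of the 20 were higher in *eif3k* with no overlap (4.56% of all probe sets), 0 were lower (1.57%), and the median difference was 0.34 (0.20 without WT replicate 3). *CYP81F4*, which modifies indole glucosinolates, had a PL difference of 1.15 and an NP difference of 0.97, and within batch 1 these were 0.71 and 0.91. *SOT18*, a sulfotransferase, differed by 1.29 in PL and 1.04 in NP, and *GSTF9* by 1.12 and 0.86, all without overlap. Without WT replicate 3 *SOT18* differed by 0.45 in both fractions and *GSTF9* by 0.56 and 0.76. None of the 20 was called between genotypes by limma, and 1 had an unadjusted p under 0.05 in PL and 4 in NP, where 436 and 721 of all 22746 probe sets did. *CYP79B3*, which makes indole-3-acetaldoxime, was called with a negative TL in *eif3k* (-1.99) and *GSTF10* with a positive one (1.86), and *MYB34*, a regulator of the pathway, with a negative TL in WT (-1.55). These were 2 of the 20 in *eif3k* and 1 in WT, beside 4.73% and 4.84% of all probe sets.

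Among ER chaperones and folding enzymes, measured for 12 of 13 genes, 7 were higher in *eif3k* PL with no overlap (4.56% of all probe sets). Their median difference was 0.75, but 0.31 without WT replicate 3. *BIP1* had PL signals of 8.20, 8.71 and 9.26 in *eif3k*, against 7.97, 8.01 and 6.85 in WT, and NP signals of 7.46, 7.19 and 7.56 in *eif3k*, against 6.86, 6.62 and 7.01 in WT, and its probe set may hybridize to several transcripts. The disulfide isomerase genes *PDIL1-1* and *PDIL1-2* differed by 1.13 and 1.08 in PL, and by 0.45 and 0.42 without WT replicate 3. *PDIL1-2* was also apart in TL, with 2.70, 3.27 and 2.41 in *eif3k* and 1.84, 2.36 and 0.14 in WT. None was called between genotypes. A TL above 0 was called in *eif3k* for *PDIL1-2* (2.79), the calreticulin gene *CRT1A* (2.06) and the calnexin gene *CNX1* (1.89). These were 3 of the 12 in *eif3k* (4.73% of all probe sets), and 0 were called in WT (4.84%).

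Jasmonate, a wound and defence hormone, is known to induce leaf ER bodies, so genes that respond to it were listed. None of the 11 measured genes of 12 was called between genotypes by limma in TL, level, PL or NP. An unadjusted p under 0.05 in PL was found for 2 of them, and for 436 of all 22746 probe sets. In PL all 11 had a positive difference and 5 were apart (4.56% of all probe sets), with a median of 0.97, which was 0.36 without WT replicate 3 and 0.25 within batch 1. The median of all probe sets with a mean of at least 5 was 0.24, and 0.00 without WT replicate 3. *VSP1*, a vegetative storage protein, had PL signals of 6.72, 6.44 and 6.62 in *eif3k*, against 4.66, 4.47 and 2.73 in WT, a difference of 2.64 (adjusted p = 0.82 in limma) and of 2.02 within batch 1, from a probe set that may hybridize to several transcripts. *LOX2*, a lipoxygenase of jasmonate synthesis, differed by 2.03 in PL and 1.08 in NP, and by 0.74 and 0.66 within batch 1. *PDF1.2A*, a defensin, differed by 1.65 in PL and 2.05 in NP, and by 0.80 and 1.49 within batch 1. A TL above 0 was called for *VSP1* in *eif3k* (2.52) and *PDF1.2A* in WT (1.41), where 4.73% and 4.84% of all probe sets were called. Summed on the linear scale, the 11 genes had PL signals of 702.7 to 2044.5 in *eif3k* and 192.3 to 526.8 in WT, with *eif3k* replicate 3 highest and WT replicate 3 lowest. Their NP sums were 592.1 to 1478 in *eif3k* and 370.0 to 491.5 in WT. Such sums give most weight to bright probe sets. *LOX2* reached a log2 signal of 10.37, and no other gene of the list exceeded 7.97. *eif3k* replicate 3 was also the highest sample in both fractions for *MBP1*, *TSA1* and *BGLU18*, but the lowest *eif3k* sample in both for *PYK10*. Whether these signals have a part in the differences of the ER body genes was not tested.

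**Figure D5:**
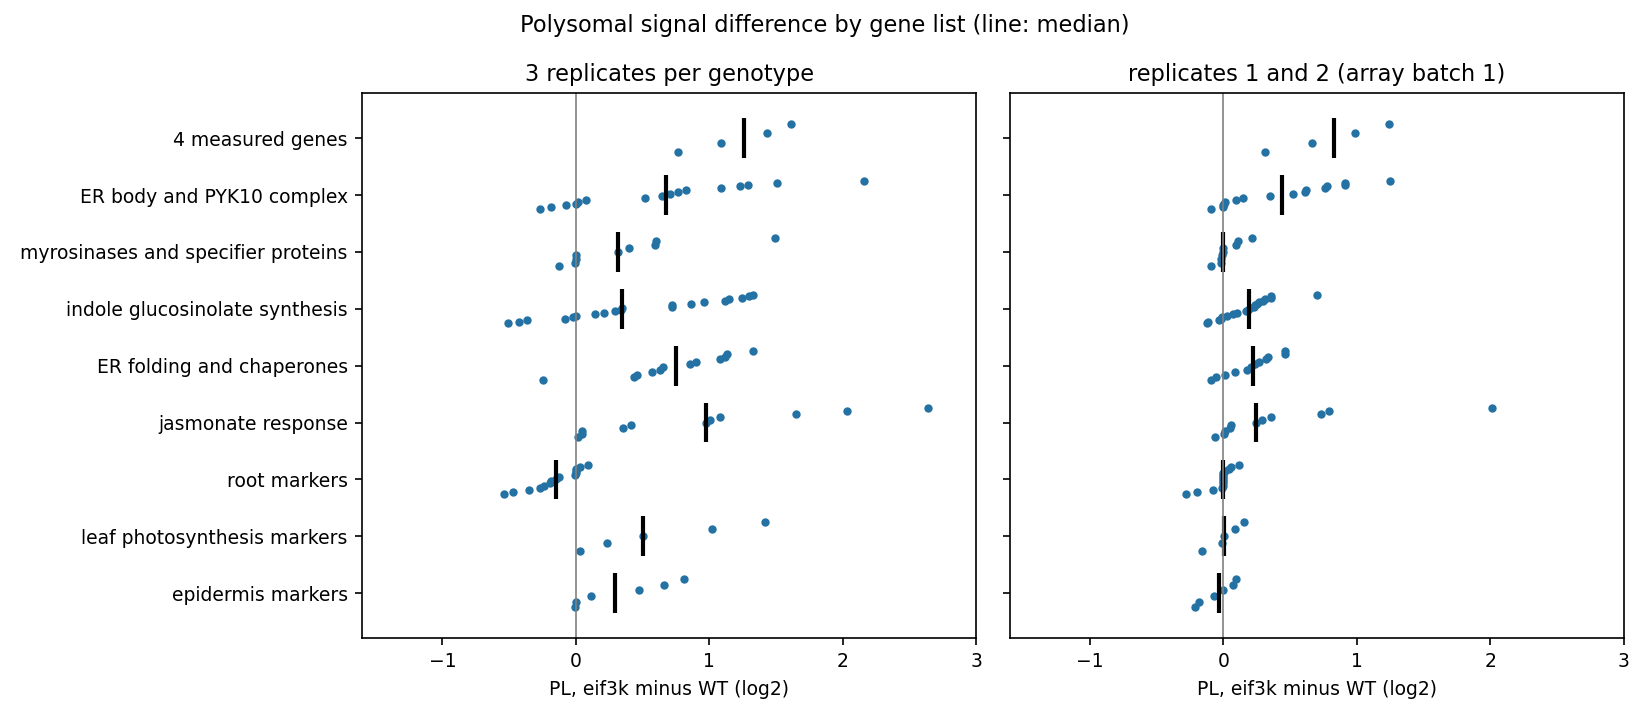
PL difference between genotypes, *eif3k* minus WT in log2 (x axis), for each measured gene of the lists (points) with the list's median (line), over 3 replicates per genotype (left) and over replicates 1 and 2 (right). The medians of the 4 genes are 1.26 and 0.83, and those of the ER body and PYK10 complex list 0.68 and 0.44.

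Markers of tissues that could hold ER bodies were set beside these values. Of 15 measured root markers 13 lay within 0.1 of the lowest array value on at least 10 of the 12 arrays, with *COBL9*, *EXPA7* and *RHD6*, which define root hairs, there on all 12. Their summed linear PL signals were 150.3 to 169.6 in *eif3k* and 158.4 to 184.9 in WT, and 0 of 15 were apart in PL. Leaf photosynthesis markers were bright, and their sums were 63244.5 to 66866.5 in *eif3k* PL, against 65187.9, 64661.1 and 35197.3 in WT replicates 1, 2 and 3. Of 6 epidermis markers 1, *KCS10*, was higher in PL without overlap (0.66, and 0.10 within batch 1), and in NP *LTP1* (0.43) and *GL2* (0.28) were higher and *ATML1* was lower (-0.42) without overlap. Summed epidermis signals in PL were 5265.1 to 9703.9 in *eif3k* and 2619.6 to 6523.1 in WT and overlapped. They give most weight to *LTP1*, which reached a log2 signal of 12.99, against 10.31 at most for the other epidermis markers. The median PL difference was -0.15 for root, 0.50 for leaf and 0.29 for epidermis markers, and within batch 1 it was 0.00, 0.01 and -0.04. For root markers it is set mostly by values at the lowest array value. The part of these tissues in the differences of the ER body genes was not tested.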

How the data were processed

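The deposited table holds log2 signals for the probe sets of 12 Affymetrix ATH1 arrays. The authors corrected the background and normalized the arrays, by GCRMA according to the submitters' processing notes and by RMA according to the methods of the study. Its version is not given in the sources used here, nor is a genome build. The 6 deposited columns of TL were not used, and TL was computed from the signals. Of 22810 probe sets, 64 controls were left out. Arrays carry no read depth, and 3 replicates per group limit the precision. The methods of the study call the WT samples biological replicates, and the labels do not say how they were grown apart, so part of the spread behind the p-values may be technical.

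The members and the gene lists were chosen with earlier results of these data known. Besides the members, the measured genes of the ER body, myrosinase and jacalin lists could be named, and from every other list the genes called and at most 3 with the largest difference between groups that did not overlap. Gene names were taken from the deposited annotation and from RefSeq's gene table (TAIR10.1), which served for names and gene order alone.

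Tests between genotypes and of TL against 0 were two-sided and used lmFit and eBayes of limma 3.58.1 under R 4.3.3, with Benjamini-Hochberg adjustment over 22746 probe sets. A call needed an adjusted p below 0.05 together with a log2 change of 1 or more. The fit was tested on simulated data. Groups were called apart when no value of one reached the range of the other. Same-numbered replicates deviated together from their group means (r across probe sets between 0.13 and 0.27 for TL, level, PL and NP, against -0.27 to 0.23 for different numbers), so the numbers were taken to pair samples, although array batch may give the same pattern. The reported genotype tests and SEs left this pairing out, and it entered a test only as the replicate block among the alternatives. Alternatives were quantile normalization, median centring, leaving out dim probe sets, the deposited series matrix, blocks, and leaving out samples. The count of members apart in PL without samples of replicate 3 was added after seeing the data. Computation used Python 3.11.15 with pandas 2.3.3, and matplotlib 3.10.9 for plots.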

Additional observations from a re-analysis of the deposited data

How the results depend on the processing

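No difference of the 4 genes changed sign under quantile normalization, median centring, the replicate block or the deposited series matrix, whose values were identical. The one that moved by more than the spread between replicates was the TL difference of *MBP1*, to -0.21 under median centring. With the replicate number as a block (replicate block) the member differences were the same, the count called between genotypes stayed at 0 in TL, PL and NP, and the 1 call in level was lost (0). Level also gave 0 with array batch as a block, 0 under quantile normalization and 2 under median centring, and NP gave 1 without dim probe sets. TL against 0 called 1818 probe sets in *eif3k* and 1692 in WT without dim probe sets, and 2307 and 2150 under median centring, against 1076 and 1100 as reported. The cause was not tested.

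Leaving out samples or replicate numbers gave 0 to 1 calls in level and in PL, 0 in TL and NP, and for TL against 0 between 0 and 1878 in *eif3k* and between 0 and 1550 in WT. The TL difference of *NAI2* then lay between 0.095 and 1.48, and that of *TSA1* between 0.38 and 1.10. Differences that then took both signs were the NP differences of *PYK10* (-0.07 to 0.66) and *NAI2* (-0.56 to 0.29) and the TL difference of *MBP1* (-0.13 to 0.14). The 4 genes remained apart in PL without WT replicate 3 and without replicate 3 of both genotypes, as they must when samples are removed. The limits are the same for all values: 3 samples per group, 1 WT sample that stands apart, array batch that coincides with replicate 3, a dim *TSA1* signal, and a shared probe set for *MBP1*.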
